A study of Homo sapiens with 10 samples.

Results

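The ATP-binding cassette (ABC) transporter genes are described here in human embryonic stem cells in which KCNH2, the gene of the potassium channel subunit hERG1, was targeted. Members are every gene of the deposited annotation whose symbol is ABC, a subfamily letter from A to G, a number and at most 1 further letter. This rule found 46 of the 32152 genes in the count table, under 45 symbols, and used no measured value. Of these, 32 had enough counts to be tested, among 19163 tested genes in all.

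The study compared 5 polyA RNA libraries of KCNH2-/- cells, called knockout here, with 5 of isogenic wild-type (WT) cells, all from the line WAe009-A (H9), an established embryonic stem cell line. Knockout cells were grown in mTeSR plus and WT cells in TeSR-E8, both on Matrigel, so that genotype and medium cannot be told apart in any comparison below. The genotype field of the labels says knockdown where titles and growth protocol say knockout, and the sources used here do not say whether the knockout is 1 clone. Nothing says that the libraries come from separate cultures, so p-values measure the spread between these libraries, which may be technical.

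ABC proteins bind and hydrolyse ATP on paired nucleotide-binding domains. Most are membrane pumps that move lipids, sterols, drugs, conjugates or peptides across a membrane, while the E and F subfamilies lack membrane domains and act on ribosomes. Stem cells are known for ABCG2, the pump that excludes the dye Hoechst from side-population cells, and ABCA1 and ABCG1 are classic targets of the liver X receptors, which sense oxysterols.

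Library totals were 29788732 to 40587206 counts in knockout and 28615751 to 47319933 in WT. The limit that a count of 0 allows, 3 counts, equals 0.0634 to 0.105 counts per 1000000 of these unscaled totals. It covers counting error only. CPM below are counts per 1000000 with library sizes scaled by TMM. KCNH2 itself averaged 12.2 ± 1.0 CPM in knockout and 15.5 ± 0.753 CPM in WT (SD, n = 5 each), a log2 fold change of -0.35 (SE 0.061, edgeR quasi-likelihood test, adjusted p = 0.000648). On the second principal component of log2 CPM, knockout 3 lay at -59.1 against -2.3 to 13.9 for the other knockout libraries, and WT 3 at -32.2 and WT 2 at -10.1 against 25 to 35.8 for the other WT libraries, so results are also given without these 3 libraries where a call changes. All 10 listed embryonic stem cell markers were expressed. They summed to 7859 to 8280.3 CPM in knockout libraries and 7021 to 7331 CPM in WT libraries. Of these 10 markers, 5 were higher in knockout by the edgeR test and none was lower. Of all tested genes, 21.9% were higher and 24.1% lower, which is the background for the next marker lists too. Summed markers of other cell types also moved with genotype: fibroblast and mesenchyme 165 to 186 CPM in knockout and 255 to 265 CPM in WT, with 3 of 4 tested genes lower and COL3A1 and POSTN under 1 CPM in both groups, and trophoblast and amnion 10.8 to 14.6 CPM in knockout and 28.3 to 35.9 CPM in WT, with both tested genes lower and GATA3 under 1 CPM. Neural markers summed to 78 to 97.2 CPM in knockout and 101 to 117 CPM in WT, with all 3 tested genes lower and PAX6, SOX1 and NEUROD1 under 1 CPM. Endoderm markers summed to 2.4 to 3.07 CPM in knockout and 4.65 to 7.75 CPM in WT, with 2 of 4 tested genes lower and GATA4, AFP and APOA1 under 1 CPM, and endothelial markers to 81.3 to 84.1 CPM in knockout and 72.5 to 76.9 CPM in WT, with 2 higher and 2 lower and PECAM1 and CDH5 under 1 CPM. The part of these cells in the results below was not tested, and in bulk libraries fewer cells of a type and less RNA per cell cannot be told apart.

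ABC transporter transcripts were, on balance, lower in knockout cells. Of the 32 tested members, 15 were lower, 1 was higher (ABCE1, the ribosome recycling factor) and 16 did not pass the test (edgeR quasi-likelihood test, Benjamini-Hochberg adjusted p under 0.05 over all tested genes). That is 46.9% lower and 3.12% higher, where 24.1% and 21.9% of all tested genes were lower and higher, and 46% were called either way. The log2 fold change was below 0 for 26 members, or 81.2%, against 49.7% of tested genes, and its median was -0.204 against 0.002. The 5 knockout libraries lay wholly below the 5 WT libraries for 14 members (43.8%, against 17.7% of tested genes) and wholly above them for 1 (3.12%, against 16.3%).

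Transcript length and GC content bear on these counts. The tested members are long, with a median transcript of 4581 bases against 2702 bases for tested genes, and 29 of 32 were longer than that median. The Spearman correlation of log2 fold change with transcript length was -0.32 over all tested genes, and -0.09 over the tested members. With each library's trend on length and GC content corrected, 13 members were lower and 5 higher (40.6% and 15.6%, against 23.9% and 20.4% of tested genes), and the median was -0.114 against -0.012. ABCA3, ABCA7, ABCB6 and ABCC1 then joined ABCE1 as higher, the pseudogene ABCA11P as lower, and ABCB8, ABCB10 and ABCC5 no longer passed. No source used here gives the strand setting of the counting, so reads may be shared where a coding gene lies on the other strand, as DLK2 does for ABCC10 and ANAPC10 and OTUD4 do for ABCE1.

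**Figure D1:**
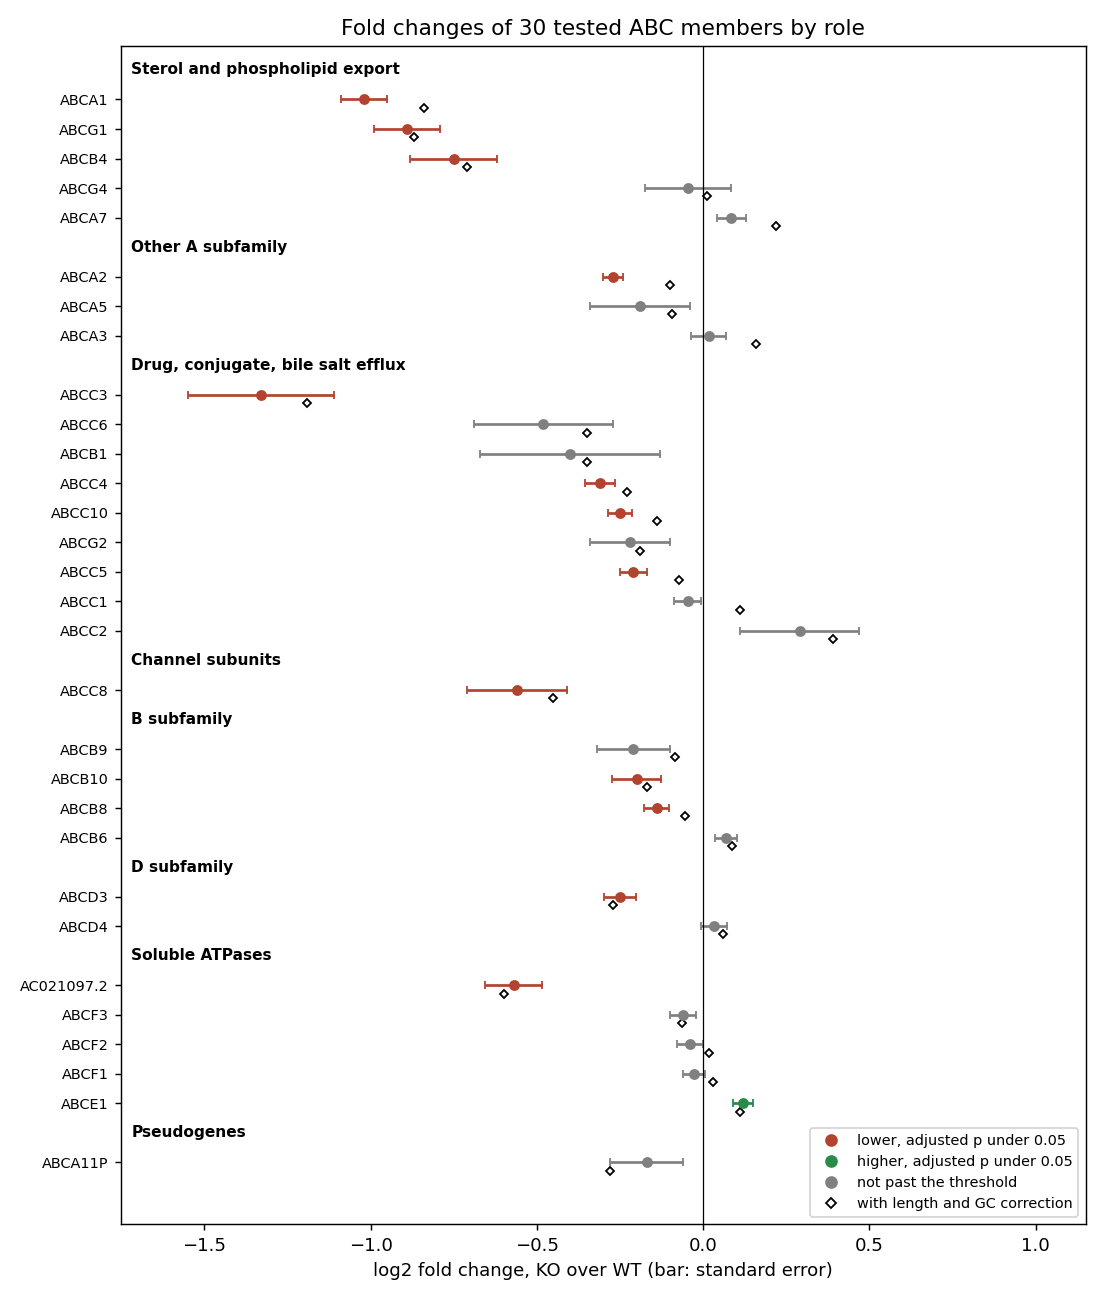
Log2 fold change of 30 tested ABC genes, knockout over WT, by role; points and bars are the edgeR estimate and its standard error, coloured by call, and diamonds the estimate with length and GC correction. The 3 lipid exporters ABCA1, ABCG1 and ABCB4 and the conjugate pump ABCC3 lie farthest to the left. Without the correction, 13 of the genes shown are called lower and 1 higher, where 24.1% and 21.9% of all tested genes were lower and higher. With it, 13 of all 32 tested members were lower and 5 higher (40.6% and 15.6%, against 23.9% and 20.4% of tested genes).

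The members spanned a wide range of levels. By WT mean, 3 genes had at least 100 CPM (ABCC1, ABCE1 and ABCF1), 18 had 10 to under 100 CPM, 9 had 1 to under 10 CPM and 16 had less than 1 CPM. Scaled to transcript length, the highest levels belonged to the soluble ATPases ABCF1, at 48.8 CPM per kb in knockout and 49.7 CPM per kb in WT, and ABCE1, at 42.7 CPM per kb in knockout and 39.3 CPM per kb in WT. ABCD4, a lysosomal protein of cobalamin handling, followed at 25.7 CPM per kb in knockout and 25.1 CPM per kb in WT, and ABCC1, the multidrug resistance protein MRP1, at 18.6 CPM per kb in knockout and 19.2 CPM per kb in WT. Unlike ABCC1, the drug pumps ABCG2 and ABCB1 sat near the bottom of the tested members. ABCG2 had 0.350 CPM per kb in knockout and 0.408 CPM per kb in WT (rank 27 of 46 in both). ABCB1 had 0.0703 CPM per kb in knockout and 0.0929 CPM per kb in WT (rank 32 in both). Summed over all 46 members, CPM were 1022 to 1076 in knockout libraries and 1101 to 1117 in WT libraries, with no overlap.

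**Figure D2:**
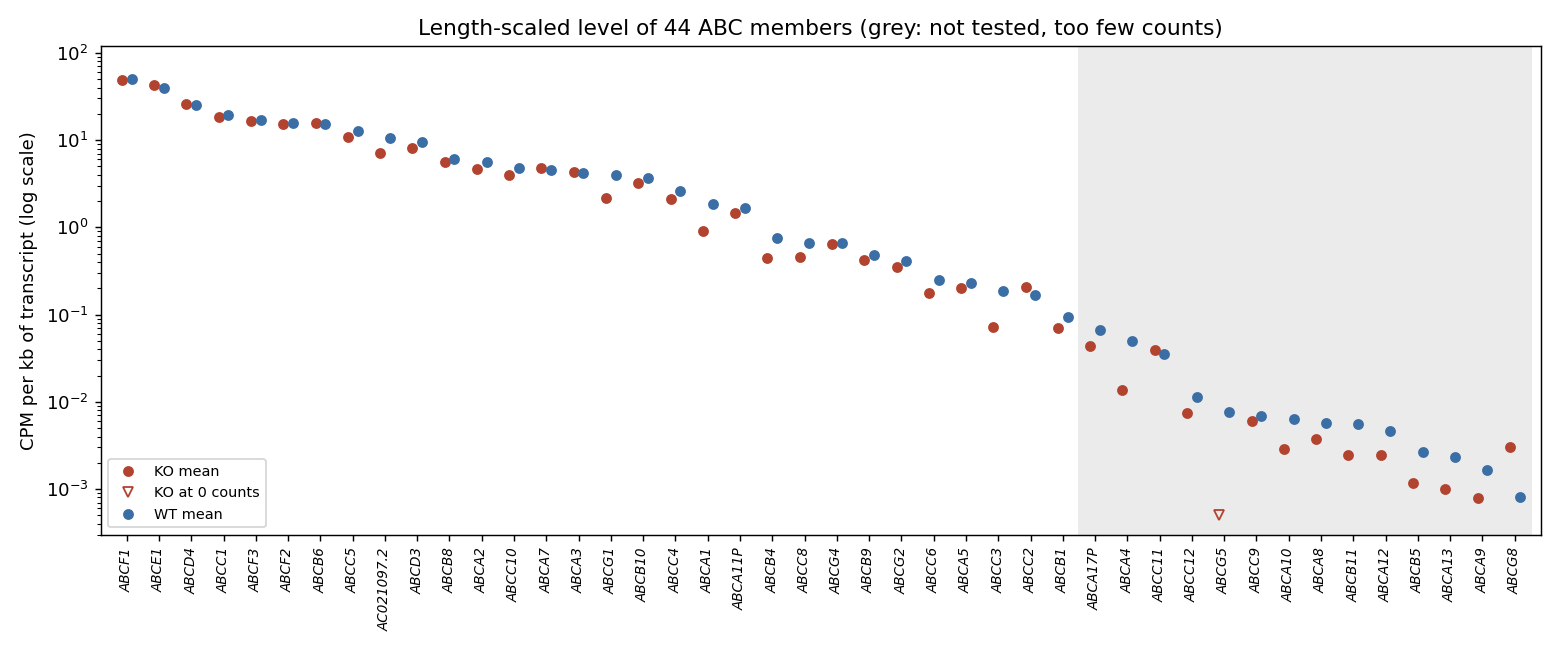
Mean level of each of 44 ABC genes in CPM per kb of transcript (log axis), knockout and WT side by side and ordered by the WT mean; shading marks the 14 genes with too few counts to test. ABCF1 and ABCE1 lead in both groups, and the knockout point lies clearly under the WT point for ABCG1, ABCA1, ABCB4 and ABCC3.

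Promoter sequence was available for 33 of the 45 symbols, as the 250 bases before the RefSeq start (GRCh38.p14). Shown are a sterol exporter and a peroxisomal importer that were lower in knockout, and the single member that was higher: ABCA1 (chr9:104928156-104928405, minus strand), ABCD3 (chr1:94418139-94418388, plus strand) and ABCE1 (chr4:145098061-145098310, plus strand). They were chosen after the values were seen. Each is written 5′ to 3′ on the gene's strand, and capitals mark matches to the motifs named after them. GENCODE starts ABCA1 and ABCE1 further upstream, so part of the ABCA1 window and all of the ABCE1 window lie in its gene models.
ABCA1: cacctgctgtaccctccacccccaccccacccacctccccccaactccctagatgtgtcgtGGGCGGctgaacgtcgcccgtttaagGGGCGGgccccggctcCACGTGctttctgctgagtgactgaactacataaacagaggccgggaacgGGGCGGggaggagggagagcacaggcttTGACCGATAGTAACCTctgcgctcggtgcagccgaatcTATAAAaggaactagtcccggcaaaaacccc
ABCD3: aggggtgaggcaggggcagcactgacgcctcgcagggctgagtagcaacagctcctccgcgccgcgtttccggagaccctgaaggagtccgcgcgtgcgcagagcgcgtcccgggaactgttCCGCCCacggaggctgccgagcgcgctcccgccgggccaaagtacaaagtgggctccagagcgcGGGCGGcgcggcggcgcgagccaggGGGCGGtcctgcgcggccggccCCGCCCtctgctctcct
ABCE1: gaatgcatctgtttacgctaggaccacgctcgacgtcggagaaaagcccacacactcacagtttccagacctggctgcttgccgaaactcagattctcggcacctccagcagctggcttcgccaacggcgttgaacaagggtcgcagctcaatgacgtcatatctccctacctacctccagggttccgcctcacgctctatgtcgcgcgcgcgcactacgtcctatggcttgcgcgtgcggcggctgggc

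Both strands were searched for 5 motifs. The liver X receptor repeat DR4 was taken as AGGTCA repeated after 4 bases of any kind, with up to 2 mismatches in all. The GC box, bound by factors of the Sp1 family, was taken as GGGCGG with no mismatch. The CCAAT box, bound by NF-Y, was searched by the letters of its name. The TATA box, which places the start of transcription in some promoters, was taken as TATAAA with no mismatch. The E-box of MYC, USF and SREBP proteins was taken as CACGTG, likewise exact. The allowance of 2 mismatches was chosen with the known ABCA1 element in mind, so that match is no finding. In ABCA1 the DR4 match TGACCGATAGTAACCT begins at position -69 from the RefSeq start, on the other strand, between GC boxes at -189, -163 and -97 and a TATA box at -31, with an E-box at -147 that reads alike on both strands. ABCD3 holds 4 GC boxes, at -128, -64, -39 and -17, and ABCE1 none of the 5 motifs. No match overlaps another. A DR4 match was present in 2 of 33 members, ABCA1 and ABCC6 (6.06%), and in 2.08% of 27305 promoters. A GC box was in 51.5% of the members and 42.3% of all promoters, a CCAAT box in 12.1% and 33%, a TATA box in 15.2% and 11.1%, and an E-box in 12.1% and 6.49%. These matches describe letters only, and a missing match says nothing of the factor.

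Exporters of sterols and phospholipids had a median log2 fold change of -0.75, against 0.002 over all tested genes. Of 7 such genes, 5 were tested, 3 were lower and none was higher (60.0% lower, against 24.1% of tested genes lower and 21.9% higher). ABCA1 (ENSG00000165029, GRCh38 chr9:104781002-104928237, minus strand) loads cholesterol and phospholipid onto lipid-poor apolipoprotein A-I, and is the gene of the promoter with the DR4 match above. It measured 10.1, 8.31, 9.95, 10.2 and 8.91 CPM in knockout libraries 1 to 5, against 17.2, 18.3, 20.1, 20.05 and 20.3 CPM in WT libraries 1 to 5. Every knockout library was far below every WT library, and the knockout mean was 49.4% of the WT mean. The log2 fold change was -1.02 (SE 0.07, adjusted p = 7.78e-07).

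ABCG1 (ENSG00000160179, chr21:42199689-42297244, plus strand), which passes cholesterol on to high-density lipoprotein, measured 7.65, 7.4, 5.57, 5.47 and 6.18 CPM in the knockout libraries, against 11.7, 12.2, 11.8, 12.8 and 11.4 CPM in the WT libraries. The groups did not overlap, and knockout 1 and 2 stood above the other knockout libraries. Its log2 fold change was -0.89 (SE 0.1, adjusted p = 2e-05). ABCB4 (chr7:87401697-87480435, minus strand), the phosphatidylcholine floppase of the bile canaliculus, measured 1.54, 1.67, 1.64, 1.99 and 2.16 CPM in the knockout libraries, against 2.98, 2.6, 3.33, 2.72 and 3.57 CPM in the WT libraries. These low levels did not overlap either, and the log2 fold change was -0.75 (SE 0.13, adjusted p = 0.000539). All 3 kept their call under each of the 20 alternative settings, with log2 fold changes of -1.05 to -0.84 for ABCA1, -0.95 to -0.84 for ABCG1 and -0.82 to -0.69 for ABCB4.

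The remaining exporters did not follow. ABCA7, a phospholipid exporter of the same subfamily as ABCA1, averaged 32.96 ± 1.58 CPM in knockout and 31.1 ± 1.4 CPM in WT (SD, n = 5 each), with a log2 fold change of 0.085 (SE 0.043, adjusted p = 0.129). It passed the test as higher with length and GC correction (0.22, adjusted p = 0.000353) and without knockout 1 (0.12, adjusted p = 0.0407). ABCG4 averaged 2.48 ± 0.328 CPM in knockout and 2.56 ± 0.359 CPM in WT (SD, n = 5 each), and its log2 fold change of -0.046 (SE 0.13, adjusted p = 0.79) turned to 0.013 with the length and GC correction. ABCG5 and ABCG8, which form the sterol pump of gut and liver, were not tested: ABCG5 had 0 counts over all knockout libraries and 4 over all WT libraries, and ABCG8 had 4 in knockout and 1 in WT.

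Of 11 tested genes of sterol sensing and lipoprotein acceptors, 4 were lower and 3 higher (36.4% and 27.3%, against 24.1% and 21.9% of tested genes). SREBF1, a lipogenic transcription factor that the liver X receptors induce, measured 77.1, 75.1, 64.8, 63.6 and 64.1 CPM in the knockout libraries, against 103, 112, 101, 109 and 98.4 CPM in the WT libraries (log2 fold change -0.61, SE 0.061, adjusted p = 1.35e-05). MYLIP, an E3 ligase of the LDL receptor and another liver X receptor target, measured 27.9, 25.6, 17.8, 19.7 and 23.2 CPM in the knockout libraries, against 35.2, 36.2, 36.3, 37.8 and 37.3 CPM in the WT libraries (-0.68, SE 0.1, adjusted p = 0.000209). For both genes, as for ABCG1, the groups did not overlap and knockout 1 and 2 were the highest knockout libraries. ABCA1 did not share this order: knockout 2 was its lowest library (8.31 CPM) and knockout 4 its highest knockout library (10.2 CPM). The receptor NR1H2 was higher (48.6 ± 3.37 CPM in knockout, 42.3 ± 1.13 CPM in WT, SD, n = 5 each; log2 fold change 0.2, edgeR adjusted p = 0.00348), its partner RXRA lower (44.8 ± 1.42 CPM in knockout, 50.5 ± 2.43 CPM in WT; -0.17, adjusted p = 0.00284), and NR1H3 did not pass (-0.05, adjusted p = 0.425). SREBF2 was lower, with a log2 fold change of -0.22 (adjusted p = 0.000116). APOE, an acceptor of exported cholesterol that is also a known liver X receptor target, was higher at 1004 ± 141 CPM in knockout against 668 ± 24.3 CPM in WT (0.59, SE 0.079, adjusted p = 0.000107). Its neighbour APOC1 was higher too (0.29, adjusted p = 0.000183), but not with the length and GC correction (0.06), under which 2 genes of the list were higher and 5 lower. The lower gene added there was LPCAT3 (-0.18, adjusted p = 0.0448). Without the correction LPCAT3 overlapped between groups and did not pass (-0.16, SE 0.068, adjusted p = 0.0791).

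**Figure D3:**
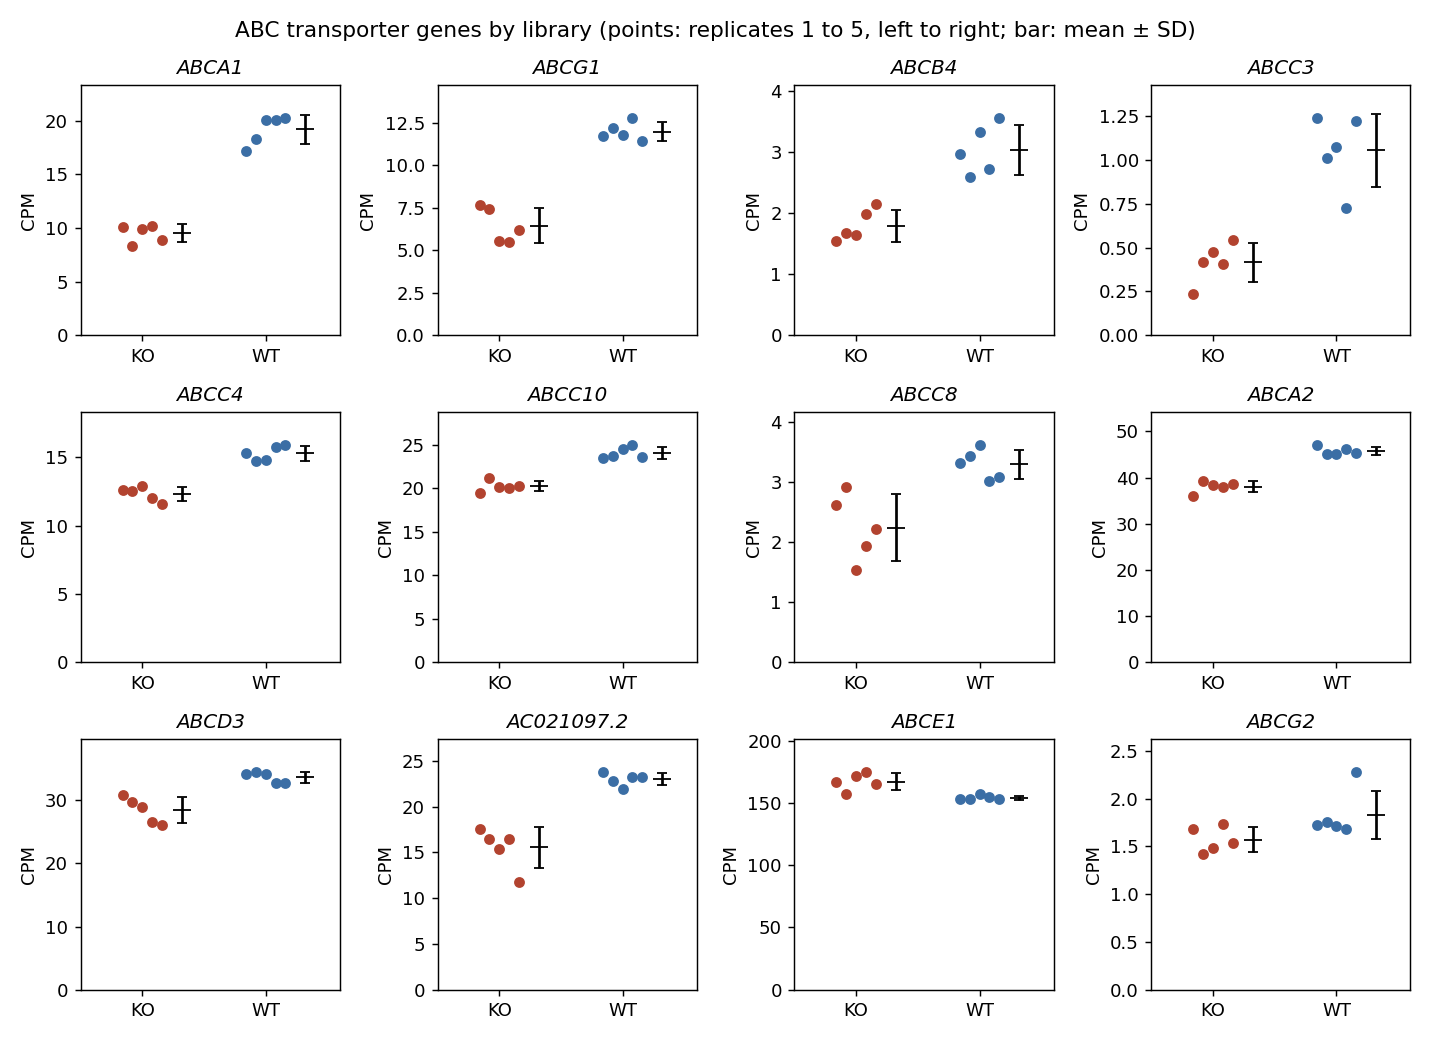
CPM of 12 ABC genes in each library, knockout left of WT; points are replicates 1 to 5 from left to right and bars the mean ± SD. In 11 panels the 5 knockout points lie wholly on one side of the 5 WT points, above them only for ABCE1, while the points of ABCG2 overlap. The genes shown are a selection, mostly of called members. Of all 32 tested members, 14 lay wholly below WT and 1 wholly above (43.8% and 3.12%, against 17.7% and 16.3% of tested genes).

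Among the other A subfamily genes, 3 of 9 were tested and 1 was lower (33.3%, against 24.1% of tested genes). The lower count was 2 without the filter on low counts and with any single knockout library or WT 5 left out, since ABCA4, described after the others, was then tested too. ABCA2 (chr9:137007227-137028922, minus strand), an endolysosomal lipid transporter known from oligodendrocytes, measured 36.1, 39.3, 38.3, 37.9 and 38.6 CPM in the knockout libraries, against 47.1, 45.1, 45.1, 46.1 and 45.4 CPM in the WT libraries. Both groups were tight and did not overlap. The log2 fold change was -0.27 (SE 0.03, adjusted p = 3.17e-05), and -0.1 (adjusted p = 0.0113) with length and GC correction. ABCA5 measured 1.71, 1.92, 1.31, 1.73 and 1.57 CPM in the knockout libraries, against 1.79, 1.9, 1.56, 2.46 and 1.7 CPM in the WT libraries. These overlapped, and the log2 fold change of -0.19 (SE 0.15) had an adjusted p of 0.316. Without WT 4, the highest library, it was -0.078 (adjusted p = 0.659). ABCA3, the surfactant lipid transporter, averaged 28.3 ± 1.82 CPM in knockout and 27.9 ± 1.6 CPM in WT (SD, n = 5 each; log2 fold change 0.017, edgeR adjusted p = 0.815), and passed as higher with the length and GC correction (0.16, adjusted p = 0.0242).

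ABCA4, the retinoid flippase of photoreceptors, was looked at after its values were seen because the authors' deposited table calls it changed. It had 1, 4, 5, 4 and 4 counts in the knockout libraries, against 17, 20, 24, 11 and 4 counts in the WT libraries. WT 5 was as low as 3 of the knockout libraries in counts, but it was also the smallest library. In CPM the groups overlapped only because knockout 3 (0.139 CPM) lay just above WT 5 (0.136 CPM). The filter on low counts left it out. Without that filter its log2 fold change was -1.85 (SE 0.4, adjusted p = 0.00302). It passed the filter with any single knockout library or WT 5 left out, at -2.03 to -1.65 (adjusted p 0.000627 to 0.00706). The knockout libraries were too low to pass the filter, so ABCA4 entered these fits only through WT libraries. WT 5, left out for -2.03, was the WT library that overlapped knockout, so these fits add no support.

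Efflux pumps for drugs, conjugates and bile salts numbered 13, of which 9 were tested, 4 were lower and none higher (44.4% lower, against 24.1% of tested genes lower and 21.9% higher). Their median log2 fold change was -0.249, against 0.002 over all tested genes. ABCC3 (chr17:50634777-50692252, plus strand), or MRP3, exports glucuronides and bile salts, and had the lowest log2 fold change of the tested members at a low level. It measured 0.235, 0.417, 0.474, 0.407 and 0.541 CPM in the knockout libraries, against 1.24, 1.01, 1.07, 0.723 and 1.22 CPM in the WT libraries. This rests on 74 counts in all knockout libraries against 207 in all WT libraries, with no overlap in CPM. The log2 fold change was -1.33 (SE 0.22, adjusted p = 0.000444). ABCC4 (chr13:95019829-95301475, minus strand), or MRP4, exports cyclic nucleotides and prostaglandins. It measured 12.6, 12.5, 12.9, 12.04 and 11.6 CPM in the knockout libraries, against 15.3, 14.7, 14.8, 15.7 and 15.9 CPM in the WT libraries, with a log2 fold change of -0.31 (SE 0.044, adjusted p = 0.00015).

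ABCC10 (chr6:43427366-43450430, plus strand), or MRP7, a pump of taxanes, measured 19.5, 21.2, 20.2, 20.1 and 20.3 CPM in the knockout libraries, against 23.5, 23.7, 24.5, 25.02 and 23.6 CPM in the WT libraries. The groups were again apart, with a log2 fold change of -0.25 (SE 0.035, adjusted p = 0.000143) and of -0.14 (adjusted p = 0.00493) after length and GC correction. ABCC5, or MRP5, averaged 64.9 ± 3.18 CPM in knockout and 75.0 ± 3.25 CPM in WT (SD, n = 5 each; log2 fold change -0.21, edgeR adjusted p = 0.00127), and did not pass with that correction (-0.072, adjusted p = 0.151). ABCC1, the most abundant efflux pump, averaged 122 ± 7.97 CPM in knockout and 126 ± 3.12 CPM in WT (SD, n = 5 each), and its log2 fold change of -0.046 (SE 0.041, adjusted p = 0.392) turned to 0.11 (adjusted p = 0.0331) with the correction.

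The stem cell pump ABCG2 (chr4:88090264-88231322, minus strand) measured 1.68, 1.42, 1.48, 1.73 and 1.54 CPM in the knockout libraries, against 1.72, 1.76, 1.71, 1.68 and 2.28 CPM in the WT libraries. The groups overlapped, and WT 5 stood above all others. Its log2 fold change was -0.22 (SE 0.12, adjusted p = 0.159), and without WT 5 it was -0.13 (adjusted p = 0.383). ABCB1 (chr7:87503633-87713323, minus strand), the multidrug pump P-glycoprotein, measured 0.436, 0.25, 0.334, 0.458 and 0.199 CPM in the knockout libraries, against 0.506, 0.496, 0.356, 0.318 and 0.544 CPM in the WT libraries. With 59 counts over the knockout libraries and 87 over the WT libraries, the groups overlapped (log2 fold change -0.4, SE 0.27, adjusted p = 0.251, or -0.26 without knockout 5), and part of its span is shared with RUNDC3B on the other strand. ABCC2 (0.29, adjusted p = 0.195) passed only without knockout 4 (0.43, adjusted p = 0.0204). ABCC6 (-0.48, adjusted p = 0.0884), whose reads may be shared with its pseudogene copies, passed only without knockout 2 (-0.61, adjusted p = 0.0387). Of the xenobiotic and stress regulators, 4 of 5 were tested and 1 was higher (25.0%, against 21.9% of tested genes). It was NFE2L2, the antioxidant response factor (35.6 ± 3.39 CPM in knockout, 31.3 ± 0.824 CPM in WT, SD, n = 5 each; 0.19, edgeR adjusted p = 0.0191). HIF1A (0.024, adjusted p = 0.73) and AHR (-0.005, adjusted p = 0.974) did not pass.

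ATP-sensitive potassium channels pair a sulfonylurea receptor with an inward rectifier pore. ABCC8 (SUR1, chr11:17392498-17476879, minus strand) measured 2.62, 2.92, 1.53, 1.93 and 2.22 CPM in the knockout libraries, against 3.31, 3.43, 3.62, 3.01 and 3.09 CPM in the WT libraries. The groups were close but did not overlap, and knockout 3 was the lowest library. The log2 fold change was -0.56 (SE 0.15, adjusted p = 0.0108), and without knockout 3, WT 2 and WT 3 it was -0.38 (adjusted p = 0.0624). The other receptor gene, ABCC9, had 9 counts in knockout and 11 in WT and was not tested. Neither pore gene passed: KCNJ11, the partner of ABCC8, averaged 10.8 ± 0.127 CPM in knockout and 10.98 ± 0.486 CPM in WT (SD, n = 5 each; log2 fold change -0.029, edgeR adjusted p = 0.631), and KCNJ8 had a log2 fold change of -0.091 (adjusted p = 0.851).

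The smaller proteins of the B subfamily serve mitochondria and lysosomes. ABCB8 (chr7:151028422-151047782, plus strand), an inner membrane protein of mitochondria, measured 24.7, 26.7, 27.4, 24.97 and 26.5 CPM in the knockout libraries, against 28.7, 29.7, 28.9, 28.7 and 27.7 CPM in the WT libraries. The groups did not overlap, though the gap was narrow. ABCB8 had a log2 fold change of -0.14 (SE 0.037, adjusted p = 0.00778). This call was lost with the length and GC correction (-0.054, adjusted p = 0.214) and without knockout 3, WT 2 and WT 3 (-0.14, adjusted p = 0.0554). ABCB10, a mitochondrial protein of haem synthesis, overlapped between groups at 12.5 ± 1.46 CPM in knockout and 14.3 ± 0.504 CPM in WT (SD, n = 5 each; -0.2, edgeR adjusted p = 0.0405). Its call was lost under 12 of 20 alternative settings. These include the omission of any single one of knockout 3, 4 and 5 or WT 1, 2, 3 and 4, with log2 fold changes of -0.21 to -0.15 (adjusted p 0.0591 to 0.0922). Without knockout 3, WT 2 and WT 3 the log2 fold change was -0.17 (adjusted p = 0.162). ABCB6 (0.068, adjusted p = 0.109) passed as higher only with the length and GC correction (0.088, adjusted p = 0.048), and ABCB9 did not pass (-0.21, adjusted p = 0.153).

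Of 12 genes for iron-sulfur clusters and haem, 3 were higher and 1 lower (25.0% and 8.33%, against 21.9% and 24.1% of tested genes). The cysteine desulfurase NFS1 averaged 38.3 ± 2.59 CPM in knockout and 28.9 ± 0.352 CPM in WT (SD, n = 5 each; log2 fold change 0.41, edgeR adjusted p = 2.25e-05). Its binding partner LYRM4 averaged 47.9 ± 2.45 CPM in knockout and 37.2 ± 1.12 CPM in WT (0.36, edgeR adjusted p = 2.12e-05). The scaffold ISCU was higher too (0.18, adjusted p = 0.000774) but not with length and GC correction (-0.023). Ferrochelatase, FECH, was lower (-0.15, adjusted p = 0.0137).

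The D subfamily acts in peroxisomes and lysosomes. ABCD3 (chr1:94418455-94518666, plus strand), or PMP70, an importer of branched-chain and bile acid precursors and the gene of the GC-box promoter above, measured 30.9, 29.7, 28.96, 26.5 and 26.1 CPM in the knockout libraries, against 34.1, 34.5, 34.2, 32.7 and 32.8 CPM in the WT libraries. All knockout libraries were below all WT libraries, and knockout 4 and 5 were the lowest. ABCD3 had a log2 fold change of -0.25 (SE 0.048, adjusted p = 0.00137), and the call held under all 20 alternative settings. ABCD4, the lysosomal member, averaged 77.1 ± 1.74 CPM in knockout and 75.4 ± 4.66 CPM in WT (SD, n = 5 each; 0.033, edgeR adjusted p = 0.524). Of 7 other genes of peroxisomal fatty acid handling, none was lower and 2 were higher (28.6%, against 21.9% of tested genes higher and 24.1% lower). The higher genes were ELOVL1, an elongase of very long chains (0.26, adjusted p = 0.000197), and SCP2, a thiolase and lipid carrier (0.13, adjusted p = 0.00357). SCP2 did not pass with the length and GC correction (0.069), under which HSD17B4 passed as lower (-0.085).

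The soluble ATPases gave the single higher member. ABCE1 (chr4:145097932-145129179, plus strand), which splits ribosomes after termination and whose promoter above held none of the motifs, measured 167, 157, 172, 175 and 165 CPM in the knockout libraries, against 153, 153, 157, 155 and 153 CPM in the WT libraries. Knockout 2 lay just above WT 3, so the groups touched without overlapping. The log2 fold change was 0.12 (SE 0.03, adjusted p = 0.00632), and without knockout 3, WT 2 and WT 3 it was 0.11 (adjusted p = 0.0511). Of 8 genes for termination and ribosome recycling, 5 were higher and none lower (62.5% higher, against 21.9% of tested genes higher and 24.1% lower). EIF2D, which frees the small subunit, averaged 60.5 ± 3.72 CPM in knockout and 47.4 ± 1.92 CPM in WT (SD, n = 5 each; 0.35, edgeR adjusted p = 7.15e-05). HBS1L, which with PELO rescues stalled ribosomes, averaged 85.1 ± 4.51 CPM in knockout and 74.03 ± 1.92 CPM in WT (0.2, edgeR adjusted p = 0.000887). With the length and GC correction 3 of the 8 were higher and 1 lower, and ABCE1 stayed at 0.11 (adjusted p = 0.00452).

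The F subfamily, named for yeast GCN20 relatives that act in translation, had 4 entries. ABCF1 averaged 169.9 ± 8.16 CPM in knockout and 173 ± 4.23 CPM in WT (SD, n = 5 each; log2 fold change -0.027, edgeR adjusted p = 0.553), and ABCF3 43.1 ± 1.52 CPM in knockout and 44.98 ± 2.26 CPM in WT (-0.06, edgeR adjusted p = 0.242). The symbol ABCF2 stands on 2 identifiers that overlap on the same strand, so that reads may be split between them. The gene ENSG00000033050 averaged 53.9 ± 2.01 CPM in knockout and 55.4 ± 2.59 CPM in WT (SD, n = 5 each; -0.039, edgeR adjusted p = 0.437). The other, ENSG00000285292, which GENCODE names AC021097.2 (chr7:151207837-151227166, minus strand), measured 17.6, 16.5, 15.4, 16.5 and 11.8 CPM in the knockout libraries, against 23.8, 22.8, 21.96, 23.2 and 23.3 CPM in the WT libraries. It was lower in every knockout library, lowest in knockout 5, with a log2 fold change of -0.57 (SE 0.086, adjusted p = 0.000239). The sum of both identifiers was 69.4 ± 3.68 CPM in knockout and 78.4 ± 2.14 CPM in WT (SD, n = 5 each), with no overlap.

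Of the 2 pseudogenes, ABCA17P had too few counts to be tested. ABCA11P (chr4:425435-474129, minus strand), which shares its span with ZNF721, measured 3.59, 2.95, 2.81, 2.85 and 3.3 CPM in the knockout libraries, against 3.34, 2.91, 3.6, 3.93 and 3.71 CPM in the WT libraries. The groups overlapped (log2 fold change -0.17, SE 0.11, adjusted p = 0.208), and it passed as lower only with the length and GC correction (-0.28, adjusted p = 0.0426). The remaining untested members, from ABCA8 and its neighbours to the bile salt pump ABCB11 and the earwax gene ABCC11, never exceeded 0.378 CPM in any library, leaving ABCA4 aside, and 9 of all 14 untested members had at most 10 counts in each group.

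The lower members differed by modest amounts apart from a few. Over the 15, the knockout mean was 39.4% to 91.0% of the WT mean. A log2 fold change of -0.5 or lower was reached by 6 members (18.8% of those tested, against 7.82% of tested genes): ABCC3, ABCA1, ABCG1, ABCB4, AC021097.2 and ABCC8. The other 9 lay between -0.31 and -0.14. Of the 16 members that did not pass, 8 had at least 10 CPM in WT (ABCA3, ABCA7, ABCB6, ABCC1, ABCD4, ABCF1, ABCF2 and ABCF3), and their log2 fold changes were -0.06 to 0.085.

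By library, the members' median log2 level relative to the WT mean was -0.11, -0.156, -0.243, -0.231 and -0.239 in knockout libraries 1 to 5, and -0.016 to 0.016 in WT libraries. The same median over all tested genes was -0.031 to 0.011 in the knockout libraries. Knockout 3, which stood apart on the second component, was close to knockout 4 and 5 here. The coefficient of variation was larger in knockout for 23 of 32 members (71.9%) and for 63.6% of all tested genes. Its median was 6.91% in knockout and 4.83% in WT over the members, and 8.3% in knockout and 6.02% in WT over all tested genes.

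**Figure D4:**
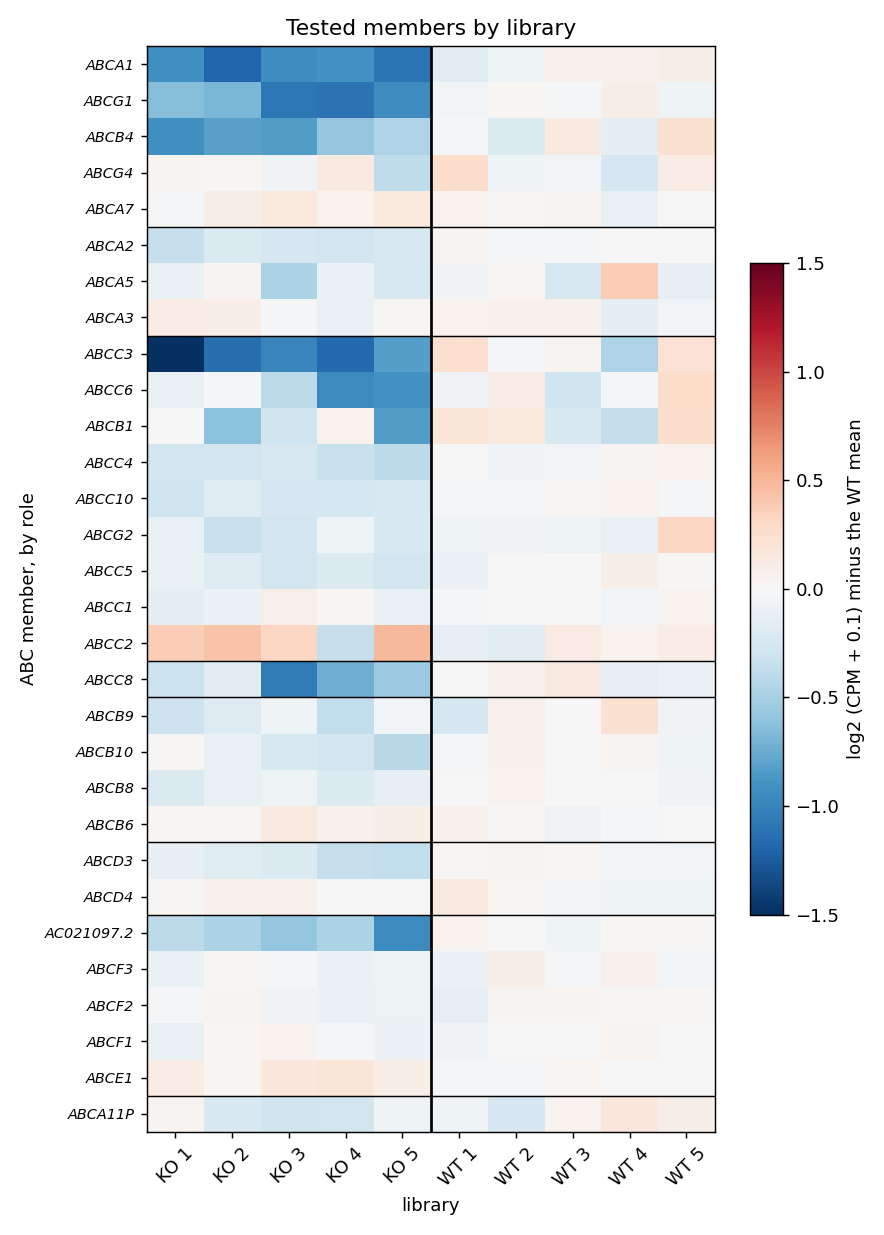
Log2 level (CPM + 0.1) of 30 tested ABC genes in each library minus the WT mean, genes ordered by role and knockout libraries left of WT; blue is below and red above the WT mean. ABCA1, ABCG1, ABCB4 and ABCC3 are blue in all 5 knockout libraries, and ABCE1 is red in all 5.

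ABC genes without an ABC symbol were not members but share the fold. The peptide transporter TAP brings antigens to MHC class I, and its subunits went opposite ways. TAP1 averaged 23.5 ± 0.757 CPM in knockout and 20.4 ± 0.543 CPM in WT (SD, n = 5 each; log2 fold change 0.21, edgeR adjusted p = 0.000501), and TAP2 31.6 ± 1.87 CPM in knockout and 35.05 ± 1.88 CPM in WT (-0.15, edgeR adjusted p = 0.0265). The chloride channel CFTR averaged 0.636 CPM in knockout and 0.622 CPM in WT (adjusted p = 0.88).

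In the authors' deposited table, 5 of 46 members are called changed, and 1217 of all 32152 genes. Its log2 fold changes, all below 0, are -0.96 for ABCA1, -0.83 for ABCG1, -0.64 for ABCB4, -0.87 for ABCC3 and -0.67 for ABCA4. These are closer to 0 than the edgeR values above. The authors' calls ask for more than an adjusted p under 0.05. ABCA2 (-0.25) and AC021097.2 (-0.53) are far under it in the same table but not called. Their count of 5 is therefore not comparable with the 16 calls made here.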

How the data were processed

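PolyA RNA was sequenced as paired-end reads, and sample titles gave the groups and replicate numbers. Raw gene counts of 10 libraries were deposited by the authors. A second deposited table, on knockout against WT, gives each gene's mean signal, log2 fold change and its standard error, a score equal to the quotient of those 2 for all 32152 genes, and a p-value. Only its symbols, calls and log2 fold changes were used, and the adjusted p-values of ABCA2 and AC021097.2. Per the submitters' processing notes, DESeq2, R 3.6.3 and the build hg38 were used. Aligner, counter, annotation and strandedness were not given in the sources used here.

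Counts were tested for the group term with edgeR 4.0.16 under R 4.3.3, by glmQLFit and glmQLFTest after filterByExpr and TMM scaling. P-values were adjusted by Benjamini-Hochberg over the 19163 genes kept, at a threshold of 0.05. SE is the log2 fold change over the root of F. Positions and transcript lengths are those of GENCODE 29 (GRCh38, the assembly of hg38), where all 46 members were found. Counts cover all members, of which 2 are not reported here. Promoters are RefSeq's. Members and all lists were chosen with earlier results of these data known. Given in full are ABCG2, ABCA1 and ABCB1, tested members past the threshold with a log2 fold change of at least 0.5 either way and at least 1 CPM, and the 2 with the smallest p per role. For lists of other genes these are the 2 with the smallest p and partners of a named member, and others are named as examples after their values were seen. The 11 alternatives were DESeq2 1.42.0 size factors and its Wald test, voom of limma 3.58.1, no filter, at least 1 CPM in at least 5 libraries, a replicate block, an offset for length and GC content (natural splines, 5 degrees of freedom), both of the last together, 1 surrogate variable (sva 3.50.0), omission of each library, and omission of knockout 3, WT 2 and WT 3. Steps were tested on simulated counts with few changed genes and no library trend on length or GC content. Such counts could not test how well the correction removes a trend. Libraries of a group differed by more than sampling noise (chi-square per degree of freedom 3.59 to 26.2), and each counts as 1 replicate.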

Additional observations from a re-analysis of the deposited data

Results flagged for a closer look

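ABCG2, the side-population pump, measured 2.28 CPM in WT 5, where the other WT libraries lay between 1.68 and 1.76 CPM. The gap made up 0.87 of the group's range, past the limit of 0.71 for 5 values. A total of 36 groups (18 genes in knockout and in WT) were examined this way, and chance alone marks about 1 group in 20.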

How the results depend on the processing

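Of the 16 called members, 11 kept direction and call under every alternative that could be fitted (20 settings, 19 for ABCC3, which the filter of 1 CPM in 5 libraries removed). Calls were lost for ABCB10, ABCB8, ABCC5, ABCC8 and ABCE1 as given in the report, and the causes were not tested. The count of lower members was 12 to 17 over all settings. Among all tested genes, 3598 to 4914 were lower and 3596 to 4820 higher, both fewest without knockout 3, WT 2 and WT 3. The count of higher members was 1, but 5 with the length and GC correction, 4 with that correction and the replicate block, and 0 without knockout 3, WT 2 and WT 3. Leaving out single libraries gave 1 to 2, with ABCA7 added without knockout 1 and ABCC2 without knockout 4.

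Members that turned sign were uncalled in the fit reported. With the length and GC correction, and with the replicate block added to it, log2 fold changes became 0.108 and 0.106 for ABCC1 (adjusted p = 0.0331 and 0.0466), 0.029 and 0.028 for ABCF1, 0.018 and 0.019 for ABCF2, and 0.013 and 0.018 for ABCG4. Leaving out single libraries gave ABCA3 -0.014 to 0.049, ABCF1 -0.046 to 0.006, and ABCG4 -0.106 to 0.031.

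The replicate block changed no member's call (1 higher and 15 lower) and gave 4258 higher and 4300 lower genes, against 4201 and 4615 without it. Deviations of same-numbered libraries correlated at 0.173, -0.157, 0.698, 0.198 and 0.176. Only knockout 3 and WT 3 correlated best with their own number, so the numbers were not taken to pair the libraries. Depth limits the genes near or under 1 CPM, among them ABCB1 and ABCC3.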
